A study of Homo sapiens with 10 samples.

Results

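The basal and wound keratin loci were described by the binding of 5 transcription factors around 7 genes: KRT5, KRT6A, KRT6B, KRT6C, KRT14, KRT16 and KRT17. Members were all peaks whose summit lay in either of a pair of windows of the hg19 genome, chr12:52820000-52950000, which holds KRT6B, KRT6C, KRT6A and KRT5 in that order, or chr17:39720000-39800000, which holds KRT14, KRT16 and KRT17. The rule names the windows by position and uses no measured value. In all, 229 of the 879550 peaks on the autosomes and the X chromosome were members, 200 on chromosome 12 and 29 on chromosome 17.

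The peaks came from chromatin immunoprecipitation with sequencing (ChIP-seq) in MCF10A-ER-Src cells, an immortalised but non-tumorigenic human breast epithelial line that carries the Src oncoprotein fused to the ligand-binding part of the oestrogen receptor, so that tamoxifen switches Src on. FOS, JUN, JUNB, NFKB1 and STAT3 were each precipitated from non-transformed cells given ethanol and from cells 12 h into transformation by 1 µM 4-hydroxy-tamoxifen. Both states carry ER-Src, and the file headers name a longer exposure to ethanol than to tamoxifen. Each factor and state had 1 library, so no difference below has a replicate check and no test was run.

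Keratins build the intermediate filaments of epithelial cells from obligate pairs of a type II chain, here KRT5 and the KRT6 genes, and a type I chain, here KRT14, KRT16 and KRT17. KRT5 pairs with KRT14 in the dividing basal layer of stratified epithelia and in the basal cells of the mammary gland. KRT6A, KRT6B, KRT6C, KRT16 and KRT17 are low in resting interfollicular epidermis and are switched on in wounded, stressed or hyperproliferative skin. FOS, JUN and JUNB are subunits of the dimeric factor AP-1, STAT3 acts downstream of cytokine receptors, and NFKB1 gives the p50 subunit of NF-κB. Binding lists hold no expression values, so neither the levels of these keratins nor the cell type could be checked from marker genes.

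A promoter sequence was at hand for 1 of the 7 members, KRT5, from RefSeq on GRCh38.p14 at chr12:52520345-52520644, minus strand, running from 250 bases before the gene's start to 50 bases after it. It is shown because KRT5 is the basal gene of the window with the densest binding, and its capitals mark the single match to the searched motifs.

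KRT5 promoter: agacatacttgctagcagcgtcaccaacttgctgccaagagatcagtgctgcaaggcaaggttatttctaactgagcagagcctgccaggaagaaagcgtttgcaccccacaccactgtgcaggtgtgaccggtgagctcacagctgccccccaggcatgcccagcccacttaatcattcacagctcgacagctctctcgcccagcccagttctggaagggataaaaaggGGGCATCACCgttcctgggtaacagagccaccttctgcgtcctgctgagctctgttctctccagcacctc

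On both strands, the window was searched for the AP-1 motif TGANTCA, the STAT motif TTCNNNGAA and the NF-κB motif of GGG and CC parted by 5 free bases. The AP-1 and STAT letters were absent, and they are present in 7.71% and 7.66% of the 35116 promoters of the same length. The NF-κB letters matched once, and 58.7% of all promoters hold such a match, so its presence does not set KRT5 apart. KRT6A, KRT6B, KRT6C, KRT14, KRT16 and KRT17 were not matched in the promoter table. The peak positions are on hg19 and the sequence on GRCh38, so no site below was placed on this promoter or assigned to one of the 7 genes.

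The type II window, with KRT5 and the KRT6 genes, was crowded with peaks of all 5 factors. The shorter type I window, with KRT14, KRT16 and KRT17, held fewer, in numbers common among genome tiles of its length. On chromosome 12 the FOS list had 29 peaks in non-transformed and 27 in transformed cells. JUN had 18 and 23 peaks, JUNB 13 and 23, STAT3 14 and 23, and NFKB1 5 and 25. When the autosomes and X were cut into 23322 tiles of 130 kb, the mean tile held from 0.568 NFKB1 peaks in non-transformed cells to 7.05 FOS peaks in transformed cells. Every one of the 10 libraries therefore had more peaks in the KRT5/KRT6 window than its own tile mean, and no more than 1.21% of tiles reached the window's count in any list. The count of FOS peaks in non-transformed cells was reached by 0.0515% of tiles.

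**Figure D1:**
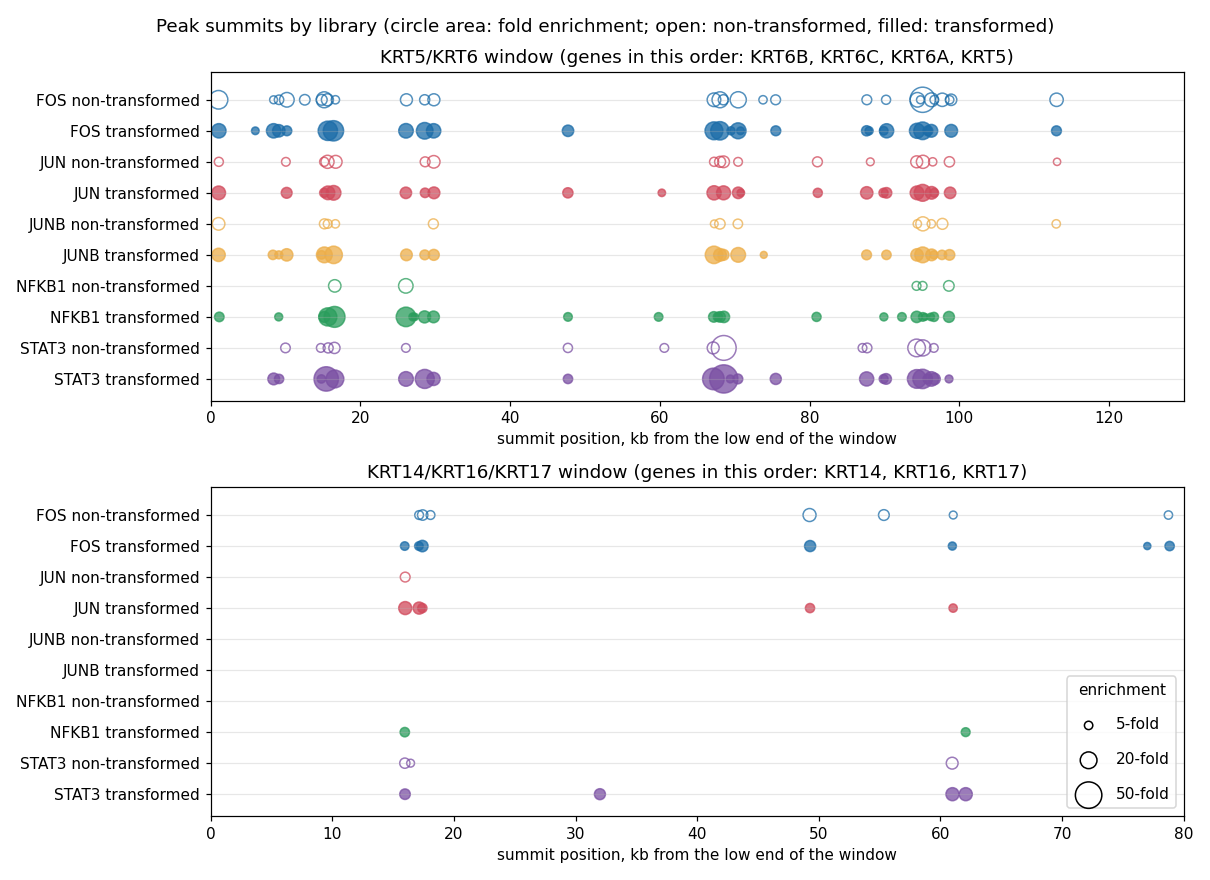
Summits in each library along the 2 windows, with the distance in kb from the window's low-coordinate end on the x axis and 1 row per library; circle area is fold enrichment, open circles are non-transformed and filled circles transformed cells. The KRT5/KRT6 window carries dense columns of circles shared by many rows, and the rows of JUNB are empty in the KRT14/KRT16/KRT17 window.

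Between the states, the number of peaks moved differently for each factor. At the threshold of the lists, FOS moved in another direction than over the whole genome, though only from 29 to 27 peaks. NFKB1 peaks in the KRT5/KRT6 window were 5 times as many in transformed cells, against 5.57 times as many in the whole list, from a library with 2 times the reads. STAT3 peaks were 1.64 times as many, against 1.87 times genome-wide from 0.821 times the reads. JUNB peaks grew more in the window than in the whole list, 1.77 times against 1.34 times at 1.72 times the reads. FOS peaks were 0.931 times as many here while the whole list grew 1.37 times, and JUN gave 1.28 times here against 1.56 times. These counts depended on the threshold of the lists. Among peaks with a −log10 q-value of at least 10, FOS had 17 in non-transformed and 18 in transformed cells, JUN 7 and 15, JUNB 3 and 14, STAT3 5 and 15, and NFKB1 2 and 9. With summits of at least 2 reads per 1000000, FOS had 2 and 5 peaks, JUN 0 and 1, JUNB 1 and 2, STAT3 3 and 11, and NFKB1 2 and 3, so the direction for FOS turned under both. The libraries held 4837474 to 22082403 reads after filtering, and the part of depth in these counts was not tested.

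**Figure D2:**
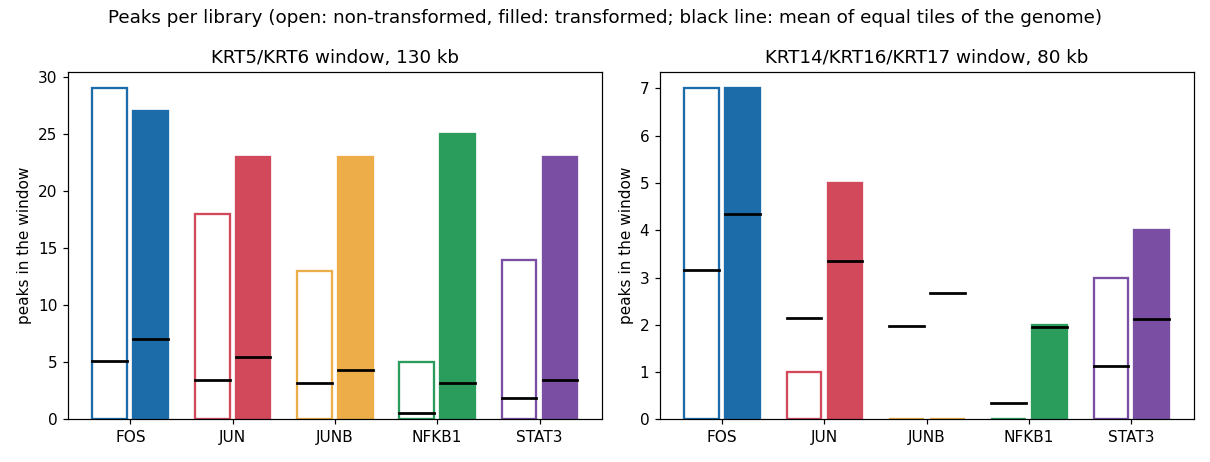
Peaks in each window by factor, with open bars for non-transformed and filled bars for transformed cells; each bar is 1 library, and the black line is the mean number of peaks of that library in genome tiles of the window's length. All bars of the KRT5/KRT6 window stand above their lines, while JUNB has no peak in either state in the KRT14/KRT16/KRT17 window.

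Summits of all lists that lay within 150 bp of a neighbour were joined into 1 site, and a factor was counted at a site in a state when its list had a summit there. This gave 46 sites in the KRT5/KRT6 window and 12 in the KRT14/KRT16/KRT17 window, of 269404 in the genome. At least 46 sites were found in 0.352% of the 130-kb tiles, whose median was 10 sites. At least 12 sites were found in 19.2% of the 37904 tiles of 80 kb, whose median was 6 sites. The type I window was thus above the typical tile and well inside the range of the genome.

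Sites of the KRT5/KRT6 window were not spread evenly over its 130 kb. No annotation of hg19 was used, so other genes within or beside these runs of sites were not looked up. From the low-coordinate end, the side of KRT6B in the gene order, 11 sites with 52 peaks stood between 52821041 and 52836689. Another 5 sites with 25 peaks stood between 52846061 and 52849825. A bare stretch of 17.9 kb followed, then a single site of 5 peaks, then a further bare stretch of 12.1 kb. Next came 3 sites of 1 peak each between 52879838 and 52880602, and a gap of 6.53 kb. Toward the high-coordinate end, the side of KRT5 in the gene order, 25 sites with 111 peaks filled the 31.8 kb from 52887131 to 52918932. Beyond another 14.0 kb, 1 last site carried 4 peaks. These runs were separated wherever neighbouring sites were more than 6 kb apart, a distance chosen after the positions were seen.

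Short reads from repeated sequence cannot be placed with certainty, and the KRT6 genes are near copies of each other. Of all stretches of 36 bases, the length of the reads, 40.3% in KRT6B, 47.0% in KRT6C and 30.3% in KRT6A recurred exactly elsewhere on the GRCh38 primary chromosomes. KRT5, whose sequence is more its own, had 2.16%. Shares in the type I genes were 25.3% for KRT14, 27.4% for KRT16 and 28.2% for KRT17, nearly all of them with the copy on the same chromosome. Between the first and last base of the member genes, 14.1% of stretches recurred in the KRT5/KRT6 cluster and 19.4% in the KRT14/KRT16/KRT17 cluster. Whether repeated sequence changed the peak counts was not tested.

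**Figure D3:**
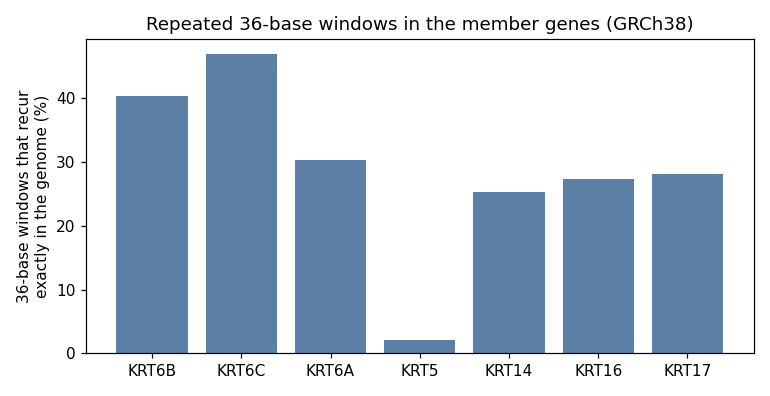
Share of 36-base stretches of each member gene that recur exactly in the GRCh38 primary assembly, in percent, with genes on the x axis in chromosomal order. The bar of KRT5 stands at 2.16% and the other 6 genes between 25.3% and 47.0%.

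At 3 of the 46 sites of the KRT5/KRT6 window there was a peak in all 10 lists, against 1.89% of all sites in the genome. In non-transformed cells, 3 of the 32 sites with any peak had all 5 factors, or 9.38%, against 3.27% over the genome. In transformed cells, 9 of 41 sites had all 5, against 15.5% over the genome. No site of the KRT14/KRT16/KRT17 window had all 5 factors in either state, out of 9 sites in each. With NFKB1 set aside, whose non-transformed library was the shallowest, FOS, JUN, JUNB and STAT3 met at 6 of the 32 sites of the KRT5/KRT6 window in non-transformed cells, against 10.9% over the genome, and at 12 of 41 in transformed cells, against 20.7%.

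Sites are numbered below from the low-coordinate end of their window. The 6 described in each window are those with a peak in the most lists. Heights are pileups, the number of overlapping extended reads at the summit, per 1000000 filtered reads of the library (RPM). Fold enrichment is the height over a background taken from the same library, with a regional range of 1000000 bp. It rests on the same pileup as the RPM height, so it is no separate check of that height. A percentile gives the rank of the fold enrichment within the same list.

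Chr12 site 40, at 52915106-52915155, had the closest summits of the 3 sites with all lists, all 10 within 49 bp. FOS was tallest there in non-transformed cells, with 4.94 RPM and 45.3-fold enrichment at percentile 97.3 of its list. In transformed cells FOS stood at 2.13 RPM and 22.1-fold, a ratio of 0.431 between the states. JUN went from 1.39 to 2.17 RPM and STAT3 from 2.74 to 4.68, while JUNB was at 2.07 and 1.90. FOS was thus lower and its partner JUN higher in transformed cells at the same position, with summits 4 bp apart for FOS and 43 bp apart for JUN. NFKB1 was weak in both states, at 1.24 and 0.724 RPM, which are pileups of 6 and 7 reads.

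Close by on the low-coordinate side, chr12 site 38 at 52914301-52914416 also had all 10 lists. STAT3 led it, with 3.29 RPM in non-transformed and 4.35 in transformed cells, at percentiles 95.2 and 89.9. The FOS heights of 1.61 and 1.54 and the JUN heights of 1.14 and 1.41 lay within 1.5-fold of each other. JUNB stood at 0.654 and 1.14 RPM, the former a pileup of 6 reads. NFKB1 was at 1.24 and 1.34.

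The remaining site of all lists, chr12 site 11 at 52836394-52836689, lay on the KRT6B side and was the broadest of them. Transformed cells had 2.85 FOS, 1.63 JUN, 2.35 JUNB, 4.86 NFKB1 and 4.01 STAT3 RPM. Non-transformed cells had 0.483, 1.32, 0.654, 2.69 and 1.28, so every factor was higher after tamoxifen, FOS by 5.90-fold and JUN by 1.23-fold. The AP-1 summits did not coincide between the states, however. Those of FOS, JUN and JUNB in transformed cells lay at 52836394, 52836412 and 52836419, within 25 bp, and those in non-transformed cells at 52836653, 52836689 and 52836648. The FOS ratio therefore compares summits 259 bp apart, JUN 277 bp and JUNB 229 bp, whereas the NFKB1 summits differed by 27 bp and those of STAT3 by 65 bp. NFKB1 in transformed cells reached 31.1-fold enrichment here, percentile 98.0 and its highest value in either window.

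Chr12 site 12, at 52846061-52846149, was the tallest NFKB1 site of non-transformed cells in these windows, at 3.72 RPM and 14.9-fold. With 4.24 RPM and 27.1-fold after tamoxifen, it was also 1 of 3 NFKB1 peaks of transformed cells at or above percentile 90. STAT3 stood at 0.732 and 2.68 RPM and FOS at 1.07 and 1.45 in non-transformed and transformed cells. JUN and JUNB had peaks in transformed cells only, at 0.975 and 1.02 RPM.

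Higher in transformed cells for each factor with a peak in both states was chr12 site 21, at 52887131-52887277. STAT3 stood at 1.46 and 5.80 RPM, a ratio of 3.96, and JUNB at 0.545 and 2.35, a ratio of 4.31. FOS was at 1.40 and 2.17 and JUN at 0.631 and 1.52. An NFKB1 peak appeared in transformed cells alone, at 1.14 RPM. The JUNB height in non-transformed cells was a pileup of 5 reads, so its ratio rests on a small count.

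Chr12 site 43, at 52916198-52916700, was a chain of 14 summits in 9 lists over 502 bp rather than a point. Its STAT3 ratio of 3.50 compares summits 330 bp apart and its JUN ratio of 2.36 summits 148 bp apart. FOS was at 1.45 and 1.09 RPM with summits 13 bp apart, and JUNB at 0.654 and 1.02.

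**Figure D4:**
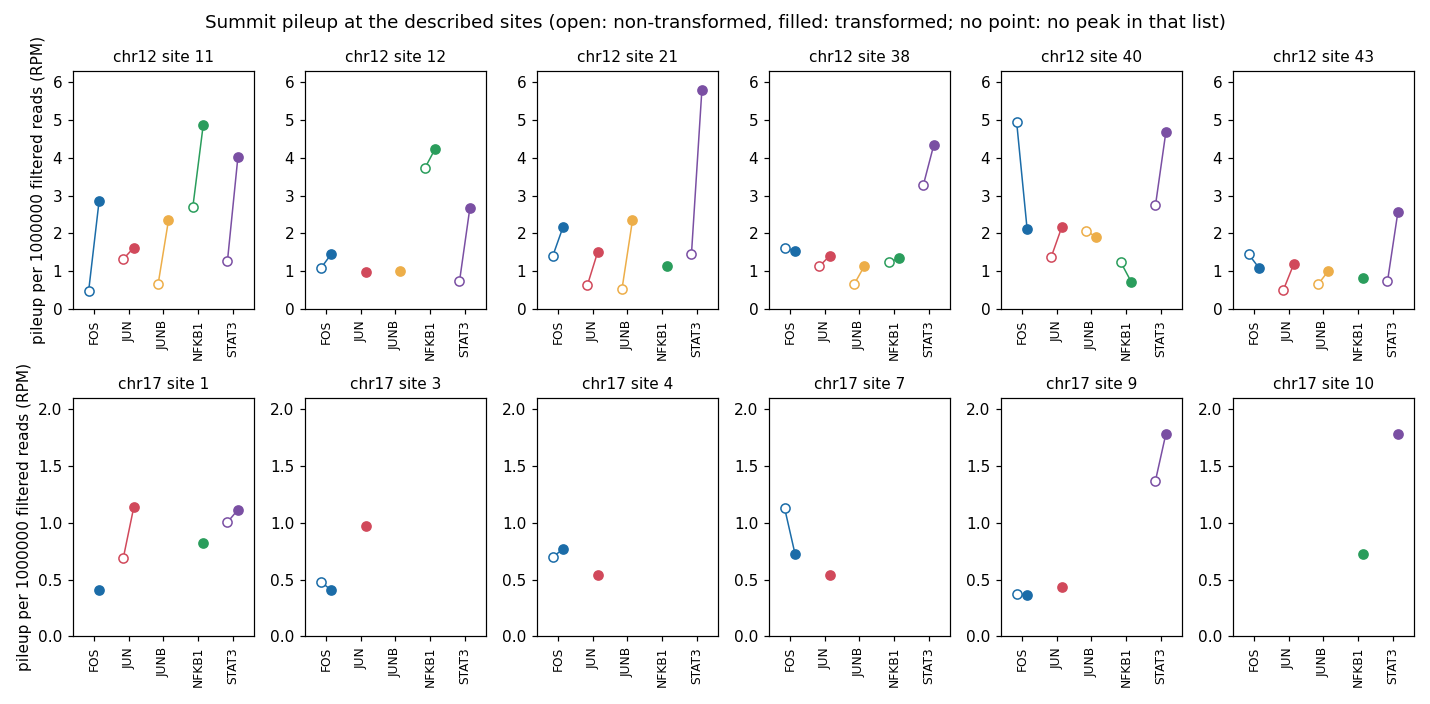
Summit pileup in RPM at the 6 described sites of each window, by factor, with open points for non-transformed and filled points for transformed cells; each point is 1 library, and a missing point means that the list had no peak there. FOS stands at 4.94 and 2.13 at chr12 site 40, STAT3 stands higher in transformed cells at all 6 chr12 sites, and no chr17 point is above 1.78.

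STAT3 had its tallest peaks in sites outside that selection, named here after their values were seen. At chr12 site 24, 52888490-52888565, STAT3 reached 6.59 RPM and 43.8-fold in non-transformed cells and 10.0 RPM and 56.8-fold in transformed cells. Both peaks stood at percentile 99.2 or above of their lists, with summits 3 bp apart. The AP-1 summits were modest there: JUN had 1.07 and 1.46 RPM, FOS 0.752 in non-transformed cells, and JUNB 0.889 in transformed cells only. A FOS peak of transformed cells spanned the site as well, with its summit of 2.31 RPM at chr12 site 23. At chr12 site 9, 52835429, only STAT3 had a summit, in transformed cells, at 7.58 RPM and 42.3-fold. Peaks of FOS, JUN, JUNB and NFKB1 in transformed cells also spanned this position, with their summits farther than 150 bp away. The neighbouring chr12 site 10 began 156 bp away and held FOS at 1.07 and 2.58, NFKB1 at 3.62 in transformed cells, and the STAT3 peak of non-transformed cells at 1.01. A join distance of 150 bp separates those sites and one of 300 bp does not.

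Sites of the KRT5/KRT6 window were divided between the states factor by factor, with the share of that factor's sites over the genome given in parentheses. FOS had a site in 34 places there, 20 in both states (52.5% over the genome), 7 in transformed cells only (35.8%) and 7 in non-transformed cells only (11.7%). JUN had 25, of which 15 were in both (43.0%), 7 in transformed only (44.2%) and 3 in non-transformed only (12.8%). JUNB had 24, with 11 in both (45.3%), 11 in transformed only (38.0%) and 2 in non-transformed only (16.7%). STAT3 had 26, with 10 in both (31.7%), 12 in transformed only (54.1%) and 4 in non-transformed only (14.1%). NFKB1 had 24, with 5 in both (15.5%), 19 in transformed only (82.4%) and none in non-transformed only (2.15%). Only here means no summit of the other state at the site, for the window and the genome alike. At chr12 sites 7, 8, 24 and 39, counted as FOS in non-transformed only, a wider FOS peak of transformed cells spanned the summit. The same held for JUN at site 23 and for JUNB and STAT3 at site 10. At site 27 the FOS summit of transformed cells lay in a peak of non-transformed cells. How often this occurs over the genome was not tested.

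STAT3 and the AP-1 subunits were found together at most STAT3 sites of the KRT5/KRT6 window, as they were over the genome. In that window, 11 of 14 STAT3 sites of non-transformed cells had FOS, JUN or JUNB, or 78.6%, close to the 77.6% over the genome. In transformed cells 21 of 22 did, against 85.3%. The exception in transformed cells was chr12 site 9. It arises from the joining by summits, as FOS, JUN and JUNB peaks of transformed cells spanned the STAT3 summit there. In the KRT14/KRT16/KRT17 window 2 of 3 and 2 of 4 did.

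Where a factor had a peak in both states, the factors differed in their ratios of height, and the order of the factors depended on the measure of height. All 10 such STAT3 sites of the KRT5/KRT6 window were higher in transformed cells in RPM and 9 of 10 in fold enrichment. Most STAT3 sites of the genome were higher too, 24507 of 29491 in RPM and 23793 in fold enrichment. The median RPM ratio in the window was 2.19, with a range from 1.07 to 3.96, beside a genome median of 1.71. At 7 of the 10 the ratio was 1.5 or more, against 58.7% over the genome, and at none was it at or below the inverse, against 3.92%. JUNB had a median ratio of 1.55 at 11 sites beside a genome median of 0.964, with 6 sites at least 1.5-fold higher (18.6% over the genome) and 1 lower (21.1%). Of those 6, chr12 sites 11, 21, 38 and 43 had JUNB pileups of only 5 or 6 reads in non-transformed cells, and sites 8 and 26 had 9 and 8. In fold enrichment the medians were 1.97 for JUNB and 1.81 for STAT3, and divided by the genome median of the RPM ratio they were 1.61 and 1.29, so JUNB stood above STAT3 on both scales. FOS had a median of 1.16 at 20 sites beside 0.949, with 7 higher (18.5%) and 4 lower (20.4%), from 0.394 to 5.90. JUN had a median of 1.24 at 15 sites beside 1.29, with 6 higher (36.6%) and none lower (4.6%). NFKB1 had a median of 1.08 at 5 sites beside 1.03, with 1 higher (23.6%) and 1 lower (18.4%).

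FOS was thus higher at some sites of this window and lower at others. The 4 lower sites were chr12 site 5 at a ratio of 0.394, site 40 at 0.431, site 46 at 0.472 and site 1 at 0.533. At site 5 and site 1, JUN was 1.53 and 2.23 times as high in transformed cells, as it was 1.56 times at site 40, although the JUN summits of site 5 were 106 bp apart. Site 46 differed, with a JUN peak of 0.379 RPM in non-transformed cells and none in transformed cells. The higher FOS sites were site 11, with its displaced summits, then site 3 at 3.27, site 15 at 2.53, site 10 at 2.40, site 36 at 2.30, site 4 at 1.62 and site 21 at 1.56. Among FOS sites of both states in this window, 1 of 20 compared summits more than 100 bp apart, against 2.54% over the genome. For JUN it was 3 of 15, against 5.36%.

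**Figure D5:**
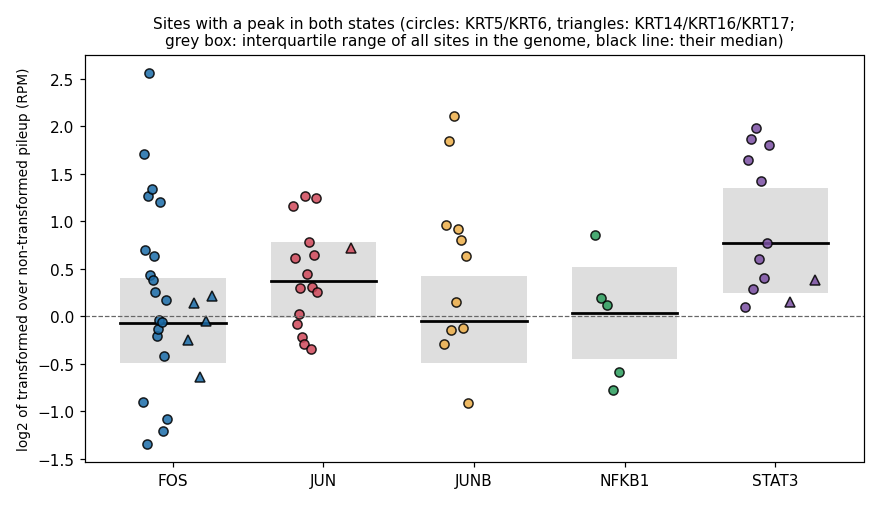
Ratio of transformed to non-transformed pileup in RPM on a log2 scale, by factor, at the member sites with a peak in both states (circles for KRT5/KRT6, triangles for KRT14/KRT16/KRT17), with the interquartile range of all sites of the genome as a grey box and their median as a black line. STAT3 points are all above 0, as is its genome median, and FOS points run from a ratio of 0.394 to 5.90.

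The type I window held 29 peaks at 12 sites: 7 FOS peaks in each state, 1 and 5 JUN peaks, 3 and 4 STAT3 peaks, and NFKB1 peaks in transformed cells only, 2 of them. The mean 80-kb tile held 3.16 and 4.34 FOS, 2.15 and 3.36 JUN, and 1.13 and 2.12 STAT3 peaks in non-transformed and transformed cells. For NFKB1 the means were 0.35 and 1.95, and for JUNB 1.98 and 2.66. JUNB had none in either state. It follows from this absence alone that none of the 7 FOS sites in each state had JUNB. Over the genome, 49.8% of FOS sites of non-transformed and 54.1% of transformed cells do. A tile of 80 kb without a JUNB peak was not rare, at 30.3% of tiles in non-transformed and 25.02% in transformed cells. Enrichment reached at most 12.2-fold, and no peak of this window reached percentile 90 of its list. By construction close to 10.0% of all peaks do, and 15 of 200, or 7.5%, did in the KRT5/KRT6 window. The STAT3 peaks of the type I window had median percentiles of 59.0 in non-transformed and 61.4 in transformed cells, while FOS peaks had 21.9 and 22.2.

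Of the 29 peaks, 14 lay in 2.12 kb at the KRT14 side, from 39735948 to 39738068. Chr17 site 1, at 39735948-39735990, had the most lists, 6 of 10, with summits within 42 bp. JUN was at 0.694 and 1.14 RPM there, STAT3 at 1.01 and 1.12, and FOS and NFKB1 in transformed cells only at 0.408 and 0.827. At chr17 site 3, 39737113-39737134, and chr17 site 4, 39737398-39737424, FOS was present in both states, at 0.483 and 0.408 and at 0.698 and 0.770. JUN joined it in transformed cells, at 0.975 and 0.542.

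Further along, FOS at chr17 site 7, 39769234-39769280, was at 1.13 RPM in non-transformed and 0.725 in transformed cells, and JUN again had a peak in transformed cells only, at 0.542. STAT3 led chr17 site 9, 39780961-39781047, with 1.37 and 1.78 RPM and summits 24 bp apart, beside FOS at 0.376 and 0.362. At chr17 site 10, 39782071-39782076, STAT3 and NFKB1 had peaks 5 bp apart in transformed cells only, at 1.78 and 0.724. Of the 5 FOS sites of both states in this window none was higher by 1.5-fold and 1 was lower, with a median ratio of 0.964. The pileups behind these heights were 7 to 21 reads.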

How the data were processed

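The 10 ChIP-seq peak lists of MCF10A-ER-Src cells, for FOS, its partners JUN and JUNB, STAT3 and NFKB1, were used, 1 library per factor and state. Per the labels and the file headers, the authors aligned the reads to hg19 with Bowtie and called peaks with MACS 2.0.10.20131216 on each library alone, without a control library, keeping no duplicate reads beyond 1 and calling at a q-value of 0.05. The deposited values per peak are the pileup signal at the summit, the fold enrichment ratio over the regional background, and the −log10 p-value and q-value. Pileups were divided by the filtered reads of the header and multiplied by 1000000 (RPM). Summits of the 10 lists on the autosomes and X were joined within 150 bp, and the highest peak of a list stood for it at a site. Described sites were the 6 per window with most lists, ties broken by the mean percentile of fold enrichment. Recurring stretches of 36 bases were counted by exact match on both strands of GRCh38 with GENCODE gene spans. Joining was tested on simulated sites that lay well apart. That test did not cover close neighbours such as chr12 sites 9 and 10, or chains of summits such as site 43. Python 3.11.15, numpy 2.4.6, pandas 2.3.3 and matplotlib 3.10.9 were used. Members and lists were chosen with earlier results of these data known. With 1 library a group no p-values or errors could be given, and pileups carry counting error of their own. Alternative join distances, overlap of whole peaks, stricter thresholds and other scalings were tried. An annotation of hg19 was not used here.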

Additional observations from a re-analysis of the deposited data

How the results depend on the processing

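With a −log10 q-value of at least 10, the KRT5/KRT6 window held 105 peaks at 28 sites, and the KRT14/KRT16/KRT17 window 10 peaks. With a pileup of at least 2 RPM these were 30 peaks at 14 sites, and 0 peaks at 0 sites. Sites of all 5 factors in the KRT5/KRT6 window then numbered 0 in non-transformed cells under both thresholds, and 4 and 0 in transformed cells. Without NFKB1, an alternative chosen after seeing the data, 6 sites of non-transformed and 12 of transformed cells had the other 4 factors, against 10.9% and 20.7% of sites over the genome. Join distances of 75 and 300 bp and overlap of whole peaks gave 37 to 57 sites in the KRT5/KRT6 window, within 1.5-fold of the main count. Divided by the genome-wide median ratio, the median ratio of STAT3 became 1.29 in the KRT5/KRT6 window and 0.706 in the KRT14/KRT16/KRT17 window, that of JUN 0.963 in the former and that of FOS 1.02 in the latter. On fold enrichment, the median ratio was 1.65 for NFKB1 in the KRT5/KRT6 window and 1.06 for FOS in the KRT14/KRT16/KRT17 window. The cause was not tested. Leaving out a replicate was impossible with 1 library per group. No paired analysis was possible because the result comes from no test. Depth limits low sites most: the lowest pileups of the lists were 4 or 5 reads.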
